A study of Mus musculus with 4 samples.

Results

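Genes of the dental epithelium and of enamel were followed in a chromatin accessibility profile of mouse incisor mesenchyme, the tissue that lies inside the tooth and is not expected to make enamel. The set held 9 of 21827 annotated protein-coding genes, listed by name with no threshold on their reads, though with earlier results of these data known: Amelx, Ambn, Enam, Odam, Klk4, Krt14, Sox2, Cldn10 and Trp63. A region of open chromatin was counted for a gene when its midpoint was nearer to a transcription start site (TSS) of that gene than to any other protein-coding TSS, or when it overlapped 1 kb either side of one of its TSSs. By this rule 122 of 121574 regions belonged to the set, 10 of them at promoters and 112 elsewhere. The cells were dental mesenchymal cells from incisors of wild-type C57BL/6 mice at 4 weeks of age (C57BL/6J in the protocol), untreated, profiled by ATAC-seq, which reads out where a transposase can insert into DNA. The 4 samples were sequencing lanes of 1 name and were deposited as 1 column of values, so there was 1 group, no contrast between conditions and no replicate error. The number of animals behind the library is not stated in the labels.

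Mouse incisors never stop growing, and their epithelium lies on the outside of the mesenchyme, against the enamel. Stem cells at the base of that epithelium feed ameloblasts, which first secrete the enamel matrix proteins amelogenin (Amelx), ameloblastin (Ambn) and enamelin (Enam) and later degrade them with proteases such as kallikrein 4 (Klk4). Odam is a protein of maturing ameloblasts and of the junctional epithelium, Krt14 a keratin of basal epithelial cells, and Cldn10 a claudin of tight junctions. Sox2 marks stem cells of the incisor epithelium, and Trp63 encodes p63, a factor needed for stratified epithelia. Epithelial cells carried along in a dissection would bring reads at the promoters that are open in those cells, which is the reason for setting promoter reads against reads elsewhere. In a bulk library a small share of fully open cells and a low accessibility in many cells cannot be told apart.

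The library held 2297894 reads in regions, with a median of 7 reads a region. Intervals beside read counts are exact 95% Poisson intervals and cover counting error only, since reads without molecular identifiers are not independent molecules. Where no region was called, nothing was measured, so "no region" is not a measured count of 0; in medians over genes, a gene without a region enters as 0. Of 16 mesenchymal genes, 15 had promoter reads, with a median of 99 reads at the promoter. Only 2 of the 16 had promoters poor in CpG pairs (defined below), and 90.5% of all genes outside that class had promoter reads. The count of 15 therefore does not by itself identify the tissue. Vim, an intermediate filament gene of mesenchymal cells, had 279 and the homeobox gene Alx1 had 269, whereas no promoter region was called at the homeobox gene Barx1. Promoter reads were found at 64.3% of all protein-coding genes, at 0 of 8 leukocyte genes and at 6 of 8 endothelial genes (Kdr 54 and Flt1 52 reads). Of the other endothelial genes, Pecam1 had no promoter region and Emcn had 1 with 0 reads. Promoter reads were also found at 5 of 8 Schwann and glial genes (Mbp 22, no region at Sox10 or S100b). All 8 leukocyte genes had promoters poor in CpG pairs, a class defined below in which 17.6% of genes had promoter reads, and up to 591 reads lay elsewhere around a leukocyte gene and up to 1019 around an endothelial one, so the count of 0 does not show that such cells were absent. The part of such cells in the results below was not tested.

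Among the 9 members, Ambn had the most promoter reads. With regions assigned by protein-coding TSSs, it was the 1 member with more summed reads at its promoter than elsewhere, as 44.8% of all protein-coding genes had. These sums run over regions of unequal number and width, and values per kilobase are given below. Promoter reads were present at 4 of the 9 members, Ambn, Sox2, Cldn10 and Krt14, where 64.3% of all protein-coding genes had them. The promoters of Amelx, Enam, Odam, Klk4 and Trp63 had no region. With genes that lack a region entered as 0, the median was 0 promoter reads over the members, which reflects the 5 without a region, and 26 over all genes. Away from promoters the difference ran the other way: 8 of 9 members had reads away from their promoter (59.5% of all genes), and the median was 76 reads against 9 over all genes. A median above that of all genes was not particular to the members. It was 223 for the mesenchymal genes, 123 for endothelial, 47 for Schwann and glial and 10.5 for leukocyte genes. Reads elsewhere without any at the promoter were found at 4 members, Amelx, Enam, Klk4 and Trp63, and at 14.3% of all genes. All 4 had promoters poor in CpG pairs (defined below). The share was 30.5% among all genes of that class and 5.20% among the others. Of the members' reads, 16.6% (236 of 1421, exact binomial interval 14.7% to 18.6%) lay at promoters, against 54.1% for all genes summed in the same way. A share below that of all genes was not particular to the members: it was 29.9% for the mesenchymal genes, 24.6% for Schwann and glial, 15.8% for keratin and junction and 7.66% for endothelial genes. With a promoter window of 2 kb either side, 6 of 9 members had promoter reads, the same share as the 66.7% of all genes in that setting, and the median was 14 against 29. The share of members with promoter reads was thus below that of all genes with windows of 1 kb and 500 bases and level with it at 2 kb. It rests on 9 genes. With noncoding genes also competing for regions, the median elsewhere was 37 and the share at promoters 31.1% (75.5% for all genes). In that setting Krt14 (28 reads at the promoter, 6 elsewhere) and Sox2 (56 and 0) joined Ambn (112 and 37) in having more at the promoter. Cldn10 had 40 and 45.

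**Figure D1:**
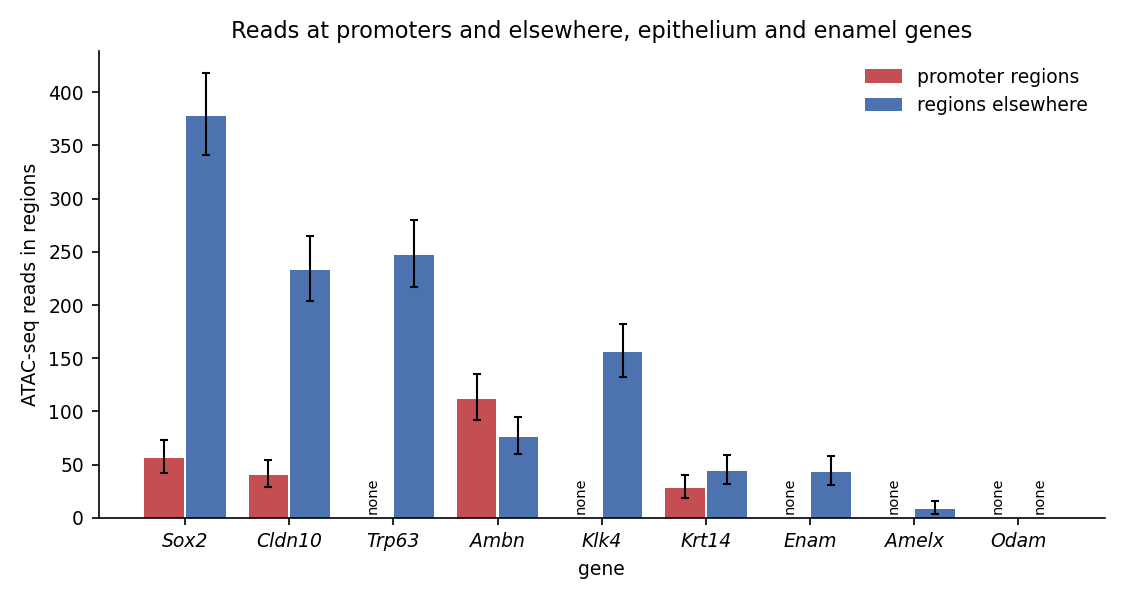
Reads in regions at promoters (red) and elsewhere (blue) for each of the 9 genes, with exact 95% Poisson intervals as error bars; "none" marks genes without a region of that kind. Ambn is the single gene whose red bar (112 reads) is above its blue bar (76 reads). Bars are sums over regions of unequal number and width.

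The content of CpG pairs at the promoters moved with these counts. The CpG ratio, observed over expected from base composition, was taken within 500 bases either side of each TSS, and the highest value of a gene was used. Promoter reads were found at 17.6% of the 7840 genes with a ratio under 0.4 and at 90.5% of the 13987 genes at or above it. Of the 9 members, 7 were in the CpG-poor class, and 2 of these 7 had promoter reads (Ambn and Krt14). Both members in the CpG-rich class, Sox2 and Cldn10, had them. The part of CpG content in the members' count with promoter reads was not tested. Ambn stood out within its class: its CpG ratio was 0.15, and 39 other CpG-poor genes had as many promoter reads or more. The promoter reads of Krt14 were exceeded or equalled by 447 other genes of the 7840 in that class. Its 28 reads were more than those of 94.3% of the class, most of which had none. Among CpG-poor genes with promoter reads the median was 16. Sox2, with a ratio of 0.96, and Cldn10, with 0.64, had 56 and 40 promoter reads, both under the CpG-rich median of 66.

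**Figure D2:**
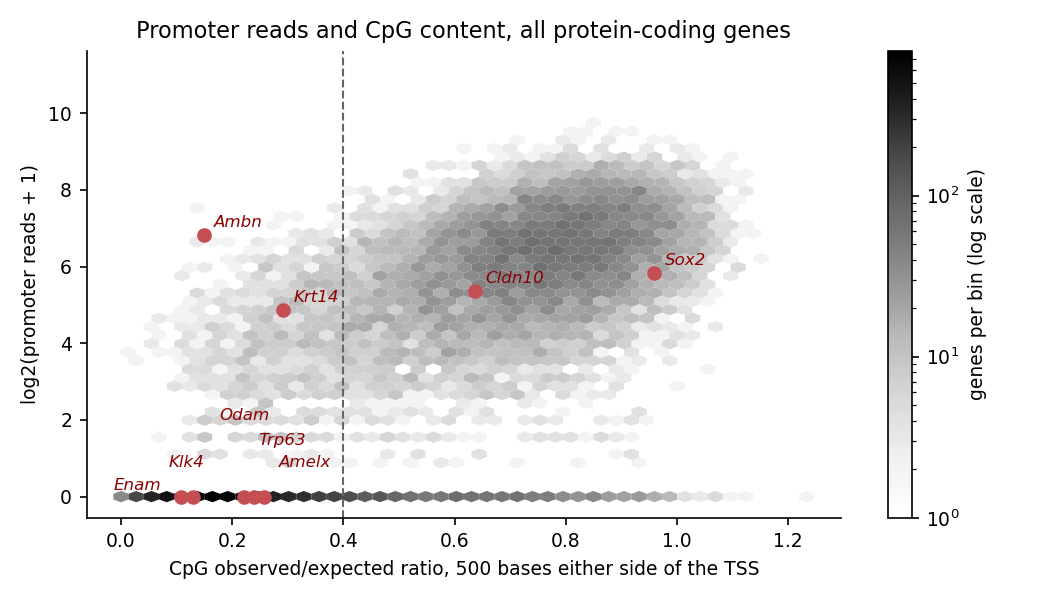
CpG observed/expected ratio at the promoter (x axis) against log2(promoter reads + 1) (y axis) for all protein-coding genes (grey bins, log colour scale), with the 9 genes in red and the class threshold of 0.4 dashed. Ambn (112 reads) lies above the bulk of genes with few CpG pairs, and 5 members lie at 0 because no region was called there.

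The enamel matrix genes differed in both kinds of reads. Amelx, the amelogenin gene on chromosome X (minus strand, 169176114 to 169187200), lies inside an intron of Arhgap6, and its nearest region was 37.7 kb from its TSS. That region, chrX:169224906-169225176, also in an Arhgap6 intron, had 8 reads (3.45 to 15.8) and was the only one assigned to Amelx. Ambn, on chromosome 5 (plus strand, 88455991 to 88468531), had 188 reads (162.1 to 216.9) over 7 regions. Its main promoter region, chr5:88455288-88456053, spanned both annotated TSSs and had 106 reads (86.8 to 128.2), more than 85.6% of all regions at promoters. A second region abutting it upstream, chr5:88455062-88455287, had 6 reads. Away from the promoter, Ambn had 39 reads (27.7 to 53.3) in an intergenic region 28.8 kb upstream, chr5:88426860-88427448. That region is nearer to a TSS of Gm7721, a gene outside the protein-coding set. Ambn kept 37 of its 76 reads elsewhere when noncoding genes competed for regions. It also had 21 and 8 reads in abutting regions 13.3 and 13.0 kb downstream of the TSS. Enam, the next protein-coding gene downstream (88487975 to 88506049), had 43 reads (31.1 to 57.9) over 4 regions and none at its promoter. Its regions had 18, 16, 6 and 3 reads, and the highest, chr5:88474566-88474817, lay 13.3 kb upstream. The intervals of Ambn and Enam did not overlap, nor did those of Enam and Amelx.

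The stretches of 250 bases before the TSS are shown for these 3 genes because the 3 share a role and differ in promoter reads. They are chrX:169187201-169187450 (minus strand), chr5:88455741-88455990 and chr5:88487725-88487974 (plus strand), in mm10. Capitals mark matches to the motifs searched below and a TATAAA box within 40 bases of the TSS.
Amelx upstream: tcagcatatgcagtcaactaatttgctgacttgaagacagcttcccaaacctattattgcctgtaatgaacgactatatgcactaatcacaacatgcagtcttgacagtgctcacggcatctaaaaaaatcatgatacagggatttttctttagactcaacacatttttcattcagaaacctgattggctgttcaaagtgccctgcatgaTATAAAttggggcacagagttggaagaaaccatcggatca
Ambn upstream: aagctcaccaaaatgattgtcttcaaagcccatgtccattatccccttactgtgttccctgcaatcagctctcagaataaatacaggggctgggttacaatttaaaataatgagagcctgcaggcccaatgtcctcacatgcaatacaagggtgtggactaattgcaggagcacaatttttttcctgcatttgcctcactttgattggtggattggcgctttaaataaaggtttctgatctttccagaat
Enam upstream: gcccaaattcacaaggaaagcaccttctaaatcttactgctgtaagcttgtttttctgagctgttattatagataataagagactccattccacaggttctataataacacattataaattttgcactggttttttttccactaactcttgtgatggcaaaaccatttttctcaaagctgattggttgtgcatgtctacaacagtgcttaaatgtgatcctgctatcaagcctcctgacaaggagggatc
All 3 stretches are poor in CpG pairs, with 3 at Amelx, 1 at Ambn and 0 at Enam, and their GC content ran from 37.6% to 42.0%. TATAAA stood within 40 bases before the TSS of Amelx, the 1 member of 9 that had it, and of 3.59% of all protein-coding genes. Ambn, with its 106-read region, thus lay between 2 genes without a promoter region in this count of CpG pairs.

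Of the later enamel genes, Klk4 had 8 regions and Odam none. Odam, on chromosome 5 (plus strand, 87885029 to 87894174) beside the casein gene Csn3, had no region at all. The closest region in the table, 34.0 kb away, had 0 reads, and the closest with any was 242.0 kb away, with 3 reads, and was assigned to the casein gene Csn1s1. Klk4, on chromosome 7 (plus strand, 43881160 to 43885804), had 156 reads (132.5 to 182.5) in 8 regions, none at the promoter. The nearest was an intronic region 2.57 kb into the gene, chr7:43883614-43883841, with 21 reads (13.0 to 32.1). The 3 regions with the most reads elsewhere were this one, one at 7.59 kb with 27 reads, and one at 13.8 kb, chr7:43894826-43895126, with 45 reads (32.8 to 60.2), more than 96.2% of all regions away from promoters. Of the 156 reads, 135 lay in intergenic sequence. The sequence nearest to the Klk4 TSS spanned 45.7 kb, which gave 341.1 reads elsewhere per 100 kb, a density above that of 97.9% of genes. The largest Klk4 region is shown because it carried the most reads around a gene whose promoter had no region (chr7:43894827-43895126, plus strand); it held no match to the motifs.
Klk4 downstream region: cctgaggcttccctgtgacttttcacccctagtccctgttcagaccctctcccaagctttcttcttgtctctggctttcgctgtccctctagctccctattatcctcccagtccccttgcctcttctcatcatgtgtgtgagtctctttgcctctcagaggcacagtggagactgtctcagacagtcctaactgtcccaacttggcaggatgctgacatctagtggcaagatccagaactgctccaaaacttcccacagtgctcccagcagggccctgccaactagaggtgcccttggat

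**Figure D3:**
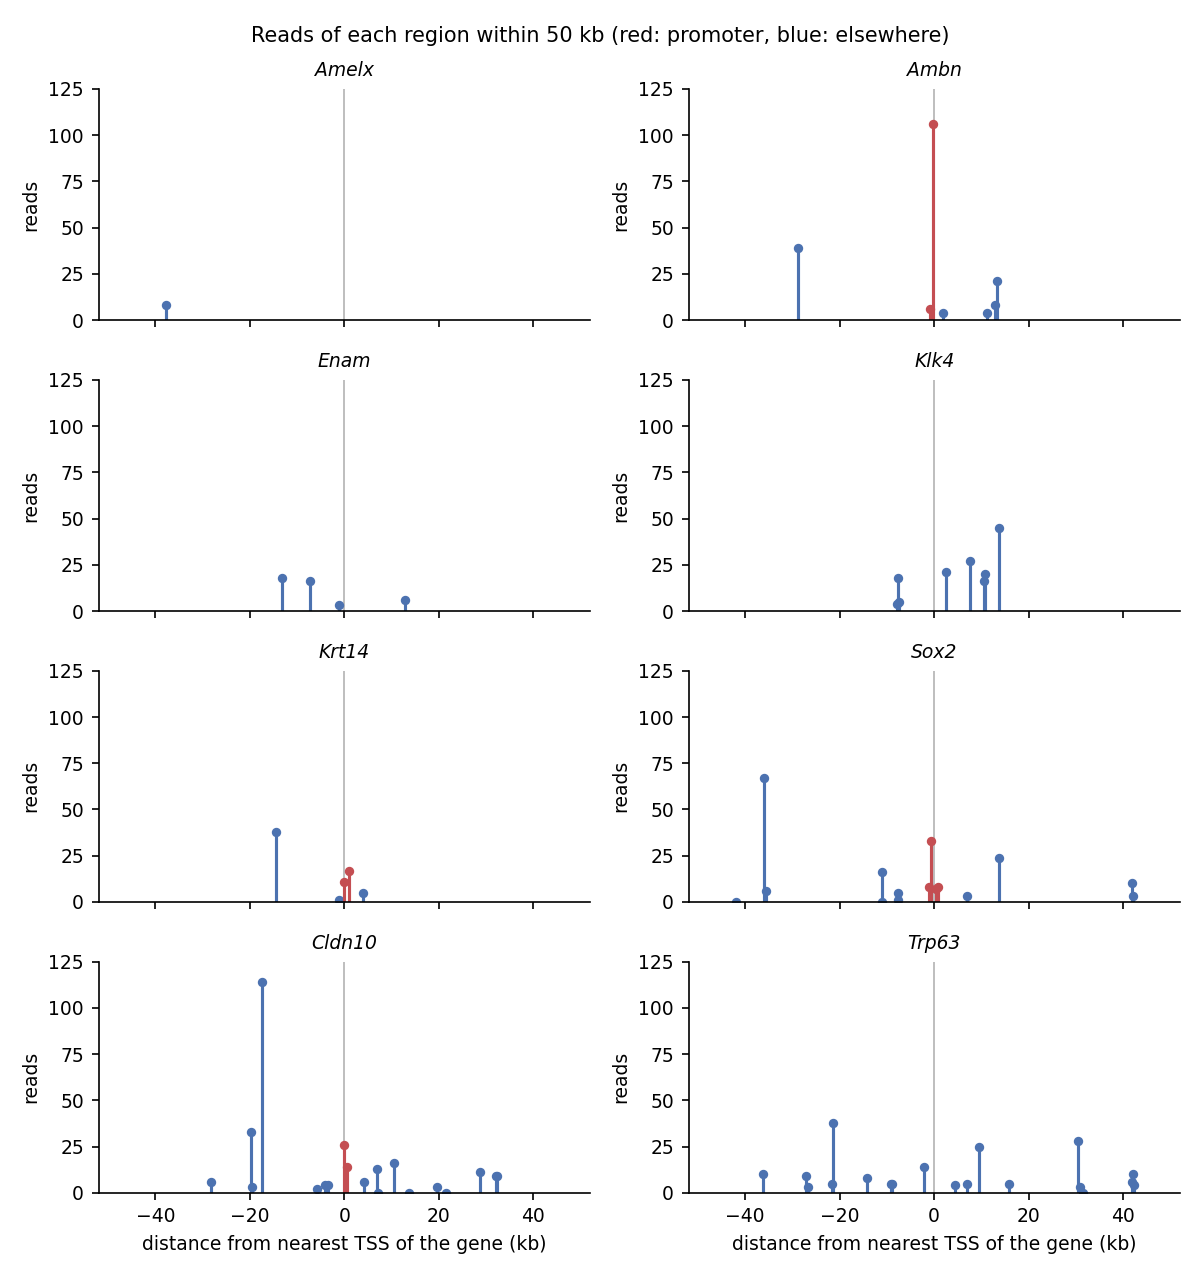
Reads of each region (y axis) by the distance of its midpoint from the nearest TSS of the gene, within 50 kb (x axis, kb, positive downstream), for the 8 genes with a region; red regions overlap the promoter window and blue ones do not. Ambn has its highest region at the TSS, while the highest regions of the other 7 genes lie away from it.

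Krt14 and Cldn10, the structural epithelial genes, both had promoter reads but stood differently in their CpG classes. Krt14 had more than 94.3% of CpG-poor genes, and Cldn10 more than 33.7% of CpG-rich genes. Krt14, on chromosome 11 (minus strand, 100203162 to 100207548), had 28 promoter reads (18.6 to 40.5) and 44 elsewhere (32.0 to 59.1), and these intervals overlapped. A region across the TSS, chr11:100207462-100207692, had 11 reads (5.49 to 19.7), and an intronic one at the edge of the promoter window, chr11:100206373-100206625, had 17 (9.90 to 27.2). Elsewhere 38 of the 44 reads stood in 1 intergenic region 14.4 kb upstream, chr11:100221759-100222226, and the others had 5 and 1 reads. That region is nearer to the TSS of the pseudogene Gm11597; with noncoding genes competing, Krt14 kept 6 reads elsewhere. The 250 bases before the Krt14 TSS, chr11:100207549-100207798 on the minus strand, are shown as the promoter of the classical basal epithelial keratin; the capitals are an AP-1 motif, TGANTCA.
Krt14 upstream: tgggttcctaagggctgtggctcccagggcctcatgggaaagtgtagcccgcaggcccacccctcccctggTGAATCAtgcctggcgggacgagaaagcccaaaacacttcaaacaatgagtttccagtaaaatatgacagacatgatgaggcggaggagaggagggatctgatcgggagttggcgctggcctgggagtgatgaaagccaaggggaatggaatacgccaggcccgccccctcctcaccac

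Cldn10, on chromosome 14 (plus strand, 118787908 to 118875489), has 2 TSSs next to each other at its start and 1 inside the gene. No region lay within 1 kb of the first 2, where the nearest was 3.26 kb away with 4 reads. Both promoter regions were at the internal TSS at 118854732: chr14:118854488-118855000 had 26 reads (17.0 to 38.1) and chr14:118855001-118855546, which abuts it, had 14. The region with the most reads of the whole set stood in the intron upstream of it, 17.4 kb before the internal TSS, chr14:118836962-118837712, with 114 reads (94.0 to 136.9). It had more reads than 99.5% of regions away from promoters and held 48.9% of the Cldn10 reads elsewhere. A further 33 reads lay 19.8 kb upstream of the gene and 16 lay in an intron 10.6 kb past the internal TSS. With noncoding genes competing, Cldn10 kept 45 of 233 reads elsewhere, because an annotated ribosomal RNA gene and other noncoding genes have nearer TSSs. The central 300 bases of the largest region, chr14:118837188-118837487 (plus strand), are shown as the strongest stretch away from a promoter; the capitals are a RUNX motif, TGTGGT.
Cldn10 intron region: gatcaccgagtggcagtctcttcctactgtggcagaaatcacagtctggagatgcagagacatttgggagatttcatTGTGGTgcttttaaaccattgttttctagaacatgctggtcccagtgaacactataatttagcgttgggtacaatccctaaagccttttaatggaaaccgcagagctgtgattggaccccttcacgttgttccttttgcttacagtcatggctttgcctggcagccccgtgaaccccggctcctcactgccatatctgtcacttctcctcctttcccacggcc

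Both transcription factor genes had most of their reads far from the promoter. Sox2, on chromosome 3 (plus strand, 34650405 to 34652461), had 56 promoter reads (42.3 to 72.7) over 4 regions and 378 elsewhere (340.8 to 418.1) over 49. The promoter regions had 33, 8, 8 and 7 reads; the highest, chr3:34649544-34650076, ended 329 bases before the TSS. The sequence nearest to the Sox2 TSS spanned 836.4 kb, and the farthest region lay 499.0 kb away. Within 50 kb there were 135 reads in 11 regions elsewhere. The region with the most reads, chr3:34614201-34614680, had 67 (51.9 to 85.1) and lay 36.0 kb upstream inside the noncoding gene Sox2ot, which overlaps Sox2. The next 2, at 388.7 and 452.9 kb downstream, had 27 and 26 reads. Per 100 kb of this span Sox2 had 45.2 reads elsewhere, above 69.1% of genes, although its total elsewhere exceeded that of 97.9% of them. When noncoding genes competed for regions, none of the 378 reads stayed with Sox2, so this total rests on the choice of protein-coding TSSs.

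Trp63, on chromosome 16 (plus strand, 25683763 to 25892102), is transcribed from an upstream promoter (the TA forms) and an internal one at 25801916 (the ΔN forms, the main ones of basal epithelium). Neither had a region within 1 kb. The nearest to the upstream TSSs was 4.39 kb away with 4 reads, and the nearest to the internal TSS, chr16:25799617-25799960, ended 1956 bases before it with 14 reads (7.65 to 23.5). All 247 reads of Trp63 (217.2 to 279.8) therefore stood elsewhere, over 25 regions, and 226 of them inside the gene. The highest were intronic: 38 reads (26.9 to 52.2) at chr16:25780260-25780692, 21.4 kb before the internal TSS, 31 at 63.6 kb past it and 28 at 30.5 kb past it. With noncoding genes competing it kept 229 reads.

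The largest regions of both factors are shown because they carry the distal signal: chr3:34614291-34614590 and chr16:25780327-25780626, each the central 300 bases on the plus strand. Capitals mark RUNX, C/EBP, homeobox and PITX motifs in the Sox2 region and SOX, TEAD and PITX motifs in the Trp63 region.
Sox2 upstream region: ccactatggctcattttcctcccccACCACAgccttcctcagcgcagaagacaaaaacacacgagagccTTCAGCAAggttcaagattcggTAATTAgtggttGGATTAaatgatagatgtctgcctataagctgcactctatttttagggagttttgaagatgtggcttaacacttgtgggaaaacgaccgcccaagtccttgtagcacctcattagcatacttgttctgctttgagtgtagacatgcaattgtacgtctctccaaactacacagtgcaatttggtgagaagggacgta
Trp63 intron region: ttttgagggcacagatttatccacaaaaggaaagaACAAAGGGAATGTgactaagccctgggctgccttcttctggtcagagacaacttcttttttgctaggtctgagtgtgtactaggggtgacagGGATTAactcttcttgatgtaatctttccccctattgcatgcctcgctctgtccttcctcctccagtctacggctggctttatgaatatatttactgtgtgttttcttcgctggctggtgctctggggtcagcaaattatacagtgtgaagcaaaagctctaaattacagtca

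Ordered by all assigned reads, the set ran from Sox2 (434 reads), Cldn10 (273), Trp63 (247), Ambn (188), Klk4 (156), Krt14 (72) and Enam (43) to Amelx (8), with no region at Odam. Neighbours whose intervals overlapped were Cldn10 and Trp63, Ambn and Klk4, and Krt14 and Enam. On promoter reads alone the order was Ambn (112), Sox2 (56), Cldn10 (40) and Krt14 (28), in which Sox2 and Cldn10 overlapped and so did Cldn10 and Krt14. Per kilobase of promoter region Ambn had 112.9 reads, Krt14 57.9, Cldn10 37.8 and Sox2 34.7, so the width of the Sox2 and Cldn10 regions enters their place. Per kilobase of regions elsewhere Ambn had 48.4, Krt14 56.1, Cldn10 55.4 and Sox2 28.8. By this measure Ambn, Krt14 and Sox2 were higher at the promoter, Krt14 narrowly, and Cldn10 was lower. The regions just outside the promoter window were an Enam region 1115 bases from its TSS with 3 reads and a Krt14 region 1132 bases from its TSS with 1 read. The region just inside was the Krt14 intronic one at 923 bases, with 17 reads.

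As single regions, those of the set away from promoters resembled the rest. The 112 regions had a median of 6 reads, as did the 96530 regions at no promoter, and 29.5% had at least 10 reads against 34.6%. In 9 of the 112 (8.04%) there were 0 reads, against 6.01% of all regions at no promoter. None of the 112 overlapped a promoter window of another protein-coding gene. By midpoint, 51 were intergenic, 38 intronic, 21 in noncoding genes (all of these nearest to Sox2) and 2 in coding exons of Cldn10. Summed per gene, reads elsewhere were above the median gene at 7 of 9 members (48.9% of all genes), and per 100 kb of nearest sequence 7 of 9 were also above the median of 12.6 reads. Summed reads elsewhere were also above the median gene at 16 of 16 mesenchymal and 7 of 8 endothelial genes. They were so at 6 of 8 Schwann and glial and 4 of 8 leukocyte genes.

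**Figure D4:**
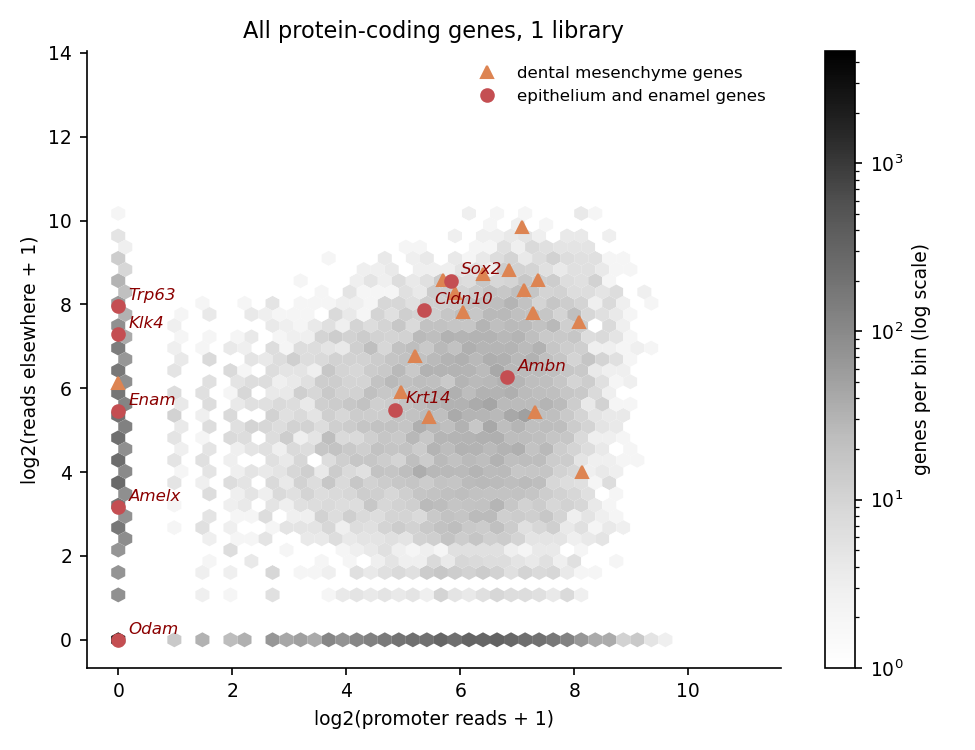
Promoter reads (x axis) against reads elsewhere (y axis), both as log2(reads + 1), for all protein-coding genes (grey bins, log colour scale), the 9 epithelium and enamel genes (red) and 16 dental mesenchyme genes (orange triangles). Of the red points 5 lie at 0 on the x axis, against 1 of the orange ones.

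Exact matches to 9 motifs were counted on both strands in the 300 bases centred on the midpoint of each region, and no difference was tested. The median width was 225.5 bases for the 112 regions and 248 for all regions at no promoter. In many regions the window therefore ran past the region's ends, and a match can lie in flanking sequence. Of the 112 regions away from promoters, 24 (21.4%) held the RUNX motif, against 25.4% of all 96530 regions at no promoter. The SOX motif ACAAAG was in 37 (33.0% against 25.6%), the homeobox motif TAATTA in 17 (15.2% against 13.9%), the C/EBP motif TTGCNNAA in 19 (17.0% against 14.9%) and the PITX motif TAATCC in 13 (11.6% against 8.13%). The AP-1 motif was in 5 (4.46% against 11.1%) and the TEAD motif ACATTCC in 5 (4.46% against 6.40%). The p63 response element was in 10 (8.93% against 9.13%), and the GRHL motif AACCGGTT in 0 (0.11% of all). In the 33 member regions with at least 10 reads the RUNX motif was in 11 (33.3% against 26.5%) and the AP-1 motif in 2 (6.06% against 10.2%). The RUNX share lay below that of all regions over the whole set and above it in the deeper regions, where it rests on 11 regions. The homeobox motif changed side the other way (5 of 33, 15.2% against 17.9%). The SOX motif stayed above (11 of 33, 33.3% against 25.5%). RUNX and SOX letters can overlap where a site for one runs into the other.

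Of 49 further epithelial and enamel genes in 4 lists, 33 (67.3%) had promoter reads, near the 64.3% of all genes, with a median of 17 reads at the promoter and 50 elsewhere. Enamel matrix and protease genes had them at 7 of 10, with a median of 6. Fam20a had 77, Fam20c, a kinase of secreted proteins, 68 and the laminin chain gene Lamb3 24, and none were found at Amtn, Odaph or Acp4. Mmp20, the secretory-stage enamel protease, had 17 reads at its promoter and 259 elsewhere, and the integrin gene Itgb6 4 and 158. Amtn, encoding amelotin, had no promoter region and 94 reads elsewhere. Genes of enamel maturation and ion transport had promoter reads at 10 of 10, with a median of 42. Only 2 of these 10 were CpG-poor, and 90.5% of all CpG-rich genes had promoter reads, with a median of 66. The calcium sensor gene Stim1 had 193, Cnnm4 145 and the bicarbonate transporter gene Slc4a4 123, and Wdr72 had the fewest, 3. Elsewhere Slc4a4 had 322 reads and Wdr72 129.

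Keratin and junction genes had promoter reads at 7 of 15, and no promoter region was called at the other 8. The desmosomal gene Dsp had 31, Cldn1 29, and Epcam and Pkp1 25 each, while none were found at Krt8, Krt15, Krt17, Krt18, Krt75, Cldn3, Cldn7 or Dsg3. Elsewhere Krt8 had 215 reads, Pkp1 188 and Epcam 133. Epithelial factors and signals had promoter reads at 9 of 14, with a median of 36.5. Satb1 had 242 and the Polycomb gene Bmi1 207, while none were found at Shh, Grhl2, Grhl3, Ovol1 or Foxn1. Shh, the signal of the enamel knot, had 137 reads elsewhere, Satb1 559, and Sp6 and Edar 107 each. Median promoter reads, with genes lacking a region entered as 0, were 0 over the 9 members, 17 over the 49 further epithelial genes, 99 over the mesenchymal genes and 26 over all genes. The CpG-poor class held 7 of the 9 members, 16 of the 49 epithelial genes and 2 of the 16 mesenchymal genes. Within it, promoter reads were found at 2 of those 7, 7 of those 16 and 2 of those 2, against 17.6% of all CpG-poor genes.

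**Figure D5:**
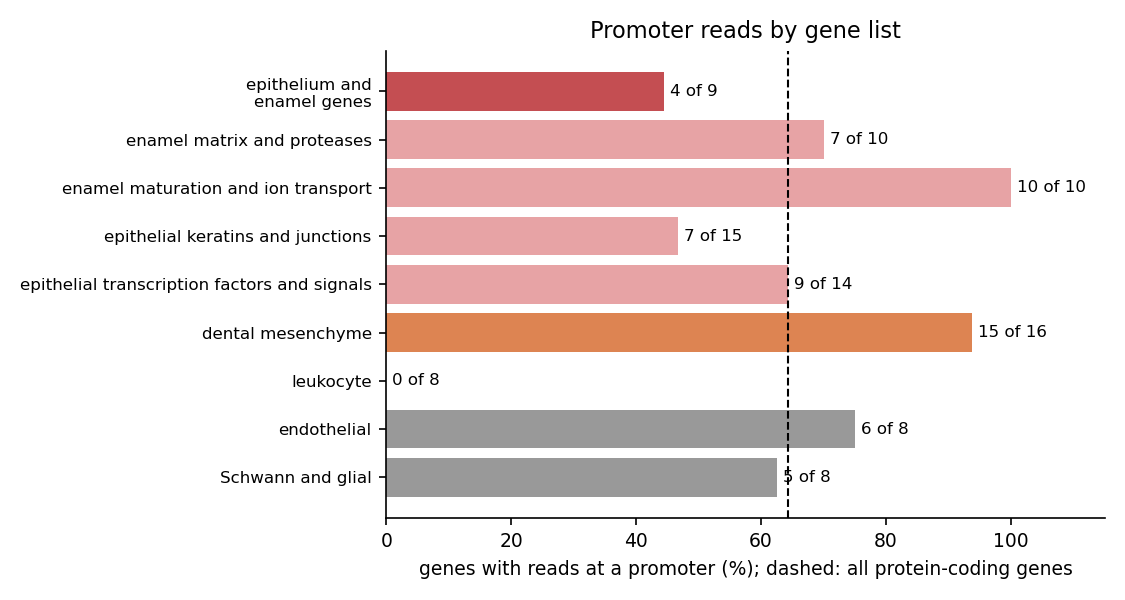
Percent of genes in each list with reads at a promoter (bars, with counts), and the share over all protein-coding genes (64.3%, dashed). The 9 epithelium and enamel genes (4 of 9) and the keratin and junction genes (7 of 15) fall left of the line, as do leukocyte genes (0 of 8). Schwann and glial genes (5 of 8) fall just left of it, and epithelial factors and signals (9 of 14) lie at it. The mesenchymal genes (15 of 16) fall right of it.

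The genes with the most similar pair of values were found by distance on log2(promoter reads + 1) and log2(reads elsewhere + 1) over all 21827 genes. Nearest to Sox2 were Atp6v1c1 (55 and 371 reads), Lyplal1 (54 and 380) and Casz1 (55 and 357). Nearest to Cldn10 were Susd1 (39 and 240), Cops8 (41 and 225) and Nufip1 (39 and 224). Near to Trp63 were Btn1a1 and Zpld1, with no promoter reads and 247 and 246 reads elsewhere.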

How the data were processed

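ATAC-seq was made from dental mesenchymal cells; per the labels' protocols, BWA-MEM placed the paired-end reads on mm10 and MACS2 called the peaks. STAR 2.6.1d and Partek are named, without roles, per the submitters' processing notes. Duplicate removal, transposase offset and the libraries used to call regions are not given in the sources used here.

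The authors deposited CPM values for 121574 regions, each with 1 read added; 99.9% were whole multiples of 0.0484 within 0.01 read, so subtracting 1 from the multiple gave the reads. A shorter deposited table of the same library, on part of the chromosomes, was not used here. Reads in regions were 11.1% of the implied divisor. A further 1 value column matched no sample given and was not used. With 1 library no test was run, on reads or on CPM.

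Regions were assigned on GENCODE vM21 basic TSSs (GRCm38, mm10) with Python 3.11.15 and NumPy 2.4.6, and sequences were read from RefSeq GRCm38.p6 with pysam 0.24.0. Promoter reads count a region for every gene whose window it overlaps. Assignment was tested on simulated data. Named genes followed a fixed rule: all members; of each other epithelial list the 3 highest at promoters, the lowest (with ties) and the 3 highest elsewhere; of other lists the 2 highest and the lowest; and the 3 genes nearest in reads to each of the 3 members with the most assigned reads. Members and lists were chosen with earlier results of these data known. Some genes under this rule are not reported here.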

Additional observations from a re-analysis of the deposited data

How the results depend on the processing

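The number of members with promoter reads stayed at 4 under all alternatives but the 2 kb window, where Enam and Trp63 joined and it was 6 of 9, at the level of all genes there (66.7%). The median of promoter reads, with genes lacking a region entered as 0, stayed at 0 except with that window, where it was 14 against 29 over all genes. The median elsewhere lay between 60 and 82 reads under 5 alternatives; it was 36.0 per kilobase of region, which is another unit, and 37 with regions assigned to the nearest TSS of any gene type. The share of reads at promoters, 16.6%, was 13.9% with a window of 500 bases, 19.3% without regions under 10 reads, 19.9% with regions within 100 kb only and 31.1% with TSSs of any gene type, each below the value for all genes under the same setting. All annotated protein-coding transcripts in place of the basic set left these 4 values as they were. With TSSs of any gene type, Krt14 and Sox2 joined Ambn in having more reads at the promoter than elsewhere. Per kilobase of region they did so too, Sox2 with 34.7 against 28.8 and Krt14 narrowly, with 57.9 against 56.1. Leaving out a lane and other library scalings could not be run, since the lanes stand in 1 column. No paired analysis was possible because there is 1 group. Regions with few reads have wide counting intervals (8 reads: 3.45 to 15.8), and a promoter without a region has no measured value.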
